A study of Mus musculus with 24 samples.

Results

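The proximal factors examined here are 7 genes, Meis1, Meis2, Meis3, Pbx2, Pbx3, Pknox1 and Shox2, out of 19937 genes measured in mouse hindlimb buds at E10.5. A gene entered through a probe set whose annotation names that gene alone, and each of the 7 had 1 such probe set.

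Nipbl+/- embryos were compared with wild type embryos, and each array carried RNA from both hindlimb buds of 1 embryo. The Nipbl+/- embryos (n = 12) were heterozygous for Nipbl, which encodes the protein that loads cohesin onto chromosomes, and belonged to the RRS strain. The wild type embryos (n = 12) were littermates matched to the mutants for stage. The embryos used spanned a range of somite stages. The heterozygosity was present in every cell of the embryo, and the bud was taken whole, so mesenchyme, ectoderm, vessels and blood all contributed RNA. In whole buds, fewer cells of a type and less RNA per cell cannot be told apart.

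Along the axis from body wall to digits, the early limb bud is divided into territories with different transcription factors. Meis1 and Meis2 mark the proximal part, where retinoic acid from the trunk is thought to sustain them, while Fgf signals from the apical ridge and breakdown of retinoic acid by Cyp26b1 limit them distally, where Hoxa13 and Hoxd13 come on. Meis and Pknox proteins are homeodomain factors of the TALE class that bind DNA together with Pbx proteins, and both work as partners of Hox proteins. Shox2 encodes another homeodomain factor, required for growth of the stylopod, the upper segment of the limb. The question put to the arrays was whether these proximal factors moved against the distal ones in Nipbl+/- buds.

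Nipbl itself separated the genotypes. It had a mutant to wild type ratio of 0.630, and 12 of 12 mutant embryos lay below the lowest wild type embryo. The hindlimb selector Pitx1 averaged 11.47 ± 0.094 in Nipbl+/- and 11.54 ± 0.090 in wild type buds on the log2 intensity scale (SD, n = 12 each), and the hindlimb gene Tbx4 averaged 11.70 ± 0.092 in Nipbl+/- and 11.71 ± 0.076 in wild type buds. Of 10 lists of tissue markers, the genes called were Krt5 of the ectoderm, which fell by 0.31 on the log2 scale, and Erbb3 of nerve and Schwann cells, which rose by 0.25 (limma adjusted p = 0.00171 and 0.0499). Differences were negative for 8 of 8 macrophage, 5 of 5 neural tube and 5 of 5 nephric and gonadal ridge markers, with 0 called. They were positive for 4 of 4 nerve and Schwann cell markers. Over all genes, 10668 of 19937 differences were negative. The 11 ectoderm markers were mixed, with 6 positive and 5 negative differences. Among the positive was Epcam at 0.15 (limma adjusted p = 0.254), which was called higher with the replicate number as a block. By Xist and Y-linked genes, 3 of 12 Nipbl+/- and 8 of 12 wild type embryos were female, so differences within each sex are given with the members they touch. The number of arrays limits the precision. All differences are mutant minus wild type on the log2 scale, tested with limma. P-values were adjusted by Benjamini-Hochberg over the 19937 genes, and a gene was called at an adjusted p under 0.05. Array intensities depend on the probes, so levels are compared between embryos for 1 gene and not between genes.

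None of the 7 proximal factors was called, against 0.813% of all genes called in either direction (0.286% higher and 0.527% lower). Before adjustment, p was under 0.05 for 2 of 7, Meis2 higher and Shox2 lower in Nipbl+/- buds, against 9.26% of all genes at that level (4.13% higher and 5.14% lower), and a t-test on linear values also called 0 of 7. Differences ran from -0.12 for Shox2 to 0.09 for Meis2, with 4 positive and 3 negative. Their median was 0.048, and that over all genes was -0.0049. In this fit, each member's 95% interval limits the size of a change in array values: no interval reached beyond -0.23 or 0.19. The intervals take no account of embryo sex, and with sex as a covariate Shox2 differed by -0.16. For Shh and several 5′ Hox genes the paper found larger falls by Q-RT-PCR than by array, so the limits may not hold for RNA amounts. A p that misses the threshold does not show that a gene did not differ by an amount within its interval.

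**Figure D1:**
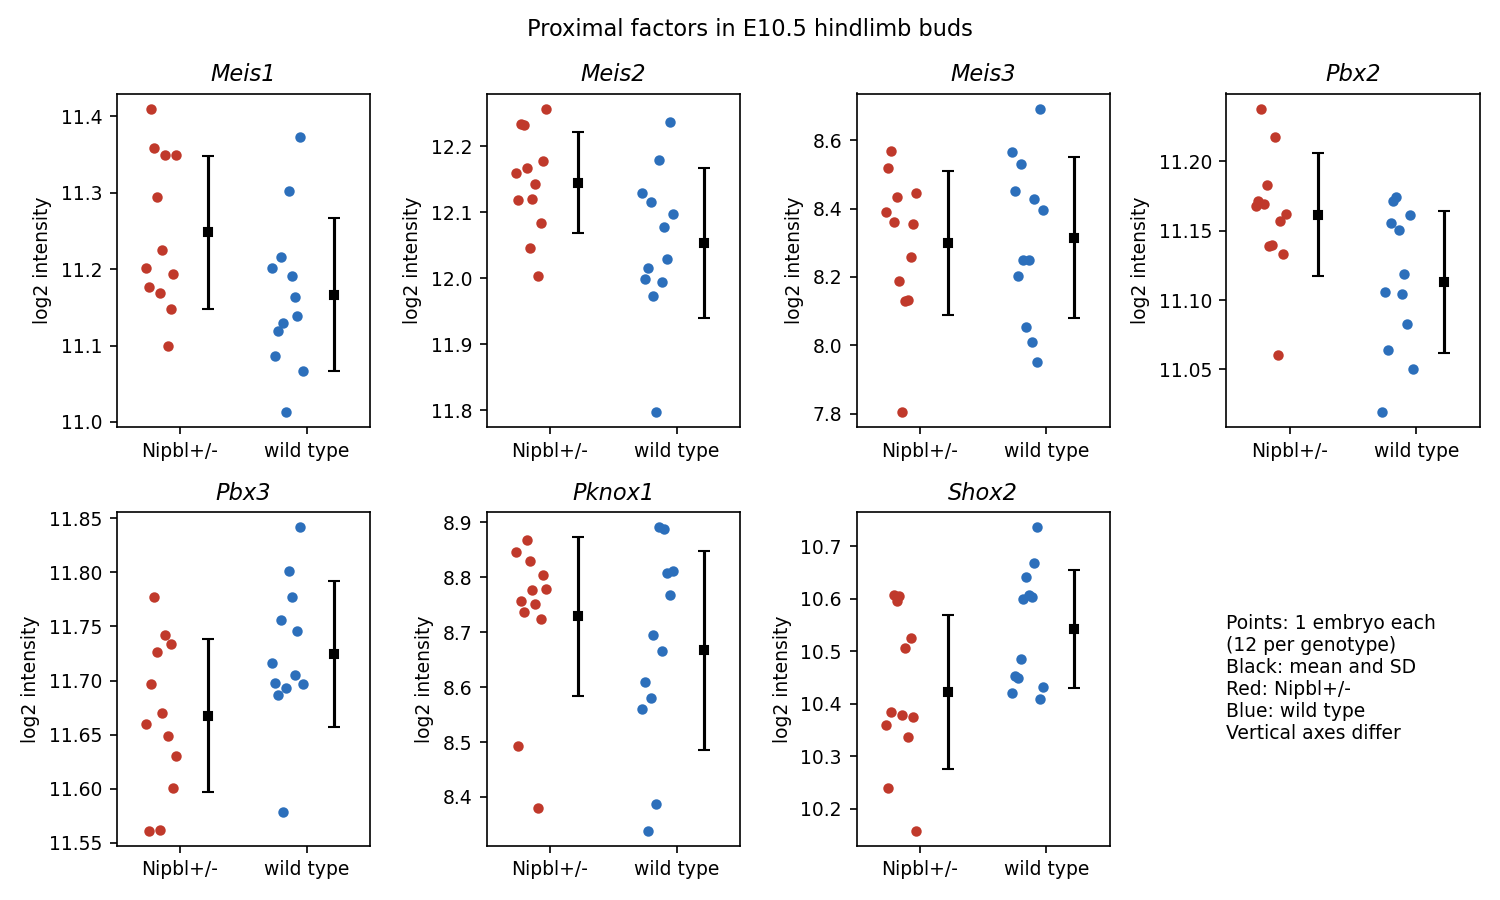
Log2 intensity of the 7 proximal factors in each embryo, Nipbl+/- (red) left of wild type (blue), beside black marks for each genotype's mean and SD, with a separate vertical axis for each gene. The genotypes overlap for every gene, and Shox2 has 7 of 12 mutant embryos below the lowest wild type embryo.

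Meis1 and Meis2, the homeobox genes that define the proximal domain, were both slightly higher on average in Nipbl+/- buds. Meis2 had a log2 intensity of 12.00 at the lowest, 12.15 at the median and 12.26 at the highest in Nipbl+/- embryos, against 11.80, 12.05 and 12.24 in wild type embryos in the same order. The ranges overlapped, and the highest wild type embryo stood above all but 1 mutant embryo, although 10 of 12 mutants lay above the wild type mean. Such a count of 10 or more was found for 8.82% of all genes. The difference for Meis2 was 0.09 (SE 0.042, ratio 1.07 with a 95% interval from 1.004 to 1.13, limma adjusted p = 0.487), and it was 0.078 within females and 0.10 within males.

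Meis1 gave a similar picture. Its log2 intensity was 11.10, 11.21 and 11.41 (lowest, median, highest) in Nipbl+/- embryos and 11.01, 11.15 and 11.37 in wild type embryos. Again 10 of 12 mutants lay above the wild type mean while the ranges overlapped. The difference was 0.08 (SE 0.043, ratio 1.06 with a 95% interval from 0.996 to 1.12, limma adjusted p = 0.598), with 0.10 within females and 0.069 within males.

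Meis3, the remaining Meis gene, spread more widely than its relatives. It ran from 7.80 through a median of 8.36 to 8.57 in Nipbl+/- embryos and from 7.95 through 8.32 to 8.69 in wild type embryos. The genotypes were intermingled, with 7 of 12 mutants above the wild type mean. The difference of -0.016 (SE 0.085, limma adjusted p = 0.988) had no stable sign, since it was -0.16 within females, 0.16 within males and 0.019 with embryo sex as a covariate.

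The Pbx genes, whose products are the DNA-binding partners of Meis and Hox proteins, went in opposite directions by small amounts. Pbx2 lay at 11.06, 11.17 and 11.24 (lowest, median, highest) in Nipbl+/- embryos and at 11.02, 11.11 and 11.17 in wild type embryos. There were 11 of 12 mutants above the wild type mean and 3 above the highest wild type embryo. With a spread of 0.044 among mutants and 0.051 among wild types (SD), Pbx2 was the tightest of the 7 genes in both genotypes, and its difference was 0.048 (SE 0.028, ratio 1.03, limma adjusted p = 0.656).

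Pbx3 had log2 intensities of 11.56, 11.66 and 11.78 in Nipbl+/- embryos and of 11.58, 11.71 and 11.84 in wild type embryos. Here 8 of 12 mutants lay below the wild type mean and 2 below the lowest wild type embryo. The difference was -0.057 (SE 0.034, ratio 0.961 with a 95% interval from 0.917 to 1.01, limma adjusted p = 0.660).

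Pknox1, also known as Prep1, encodes a further TALE partner of Pbx. Its log2 intensity was 8.38, 8.77 and 8.87 (lowest, median, highest) in Nipbl+/- embryos and 8.34, 8.68 and 8.89 in wild type embryos. The mutants lay within the wild type range, with 10 of 12 above its mean. The difference was 0.062 (SE 0.064, ratio 1.04, limma adjusted p = 0.879), with -0.022 within females, 0.076 within males and 0.033 with embryo sex as a covariate.

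Shox2, needed for the femur and humerus, was the member with the largest negative difference. Its log2 intensity was 10.16, 10.38 and 10.61 (lowest, median, highest) in Nipbl+/- embryos and 10.41, 10.54 and 10.74 in wild type embryos. Although 7 of 12 mutants lay below every wild type embryo, the other 5 were inside the wild type range, and a gap of values parted the embryos of both genotypes. In Nipbl+/- the 7 lower embryos reached 10.38 and the 5 upper ones began at 10.51, while in wild type 6 embryos reached 10.49 and 6 began at 10.60. The difference was -0.12 (SE 0.053, ratio 0.920 with a 95% interval from 0.854 to 0.992, limma adjusted p = 0.450), with -0.18 within females and -0.15 within males, and 9 of 12 mutants lay below the wild type mean, as did that many or more for 17.8% of all genes.

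The promoters of Meis1, Meis2 and Shox2 are shown because the first pair varied together between embryos and Meis2 and Shox2 had the smallest p-values, in opposite directions. Each sequence is RefSeq's, build GRCm38.p6, from 250 bases before the start of the gene to 50 after it, read 5′ to 3′ on the gene's strand, which is the minus strand for all 3. They lie at chr11:19018920-19019219 for Meis1, chr2:116064570-116064869 for Meis2 and chr3:66981722-66982021 for Shox2. Capitals mark the letters TATAAA.
Meis1: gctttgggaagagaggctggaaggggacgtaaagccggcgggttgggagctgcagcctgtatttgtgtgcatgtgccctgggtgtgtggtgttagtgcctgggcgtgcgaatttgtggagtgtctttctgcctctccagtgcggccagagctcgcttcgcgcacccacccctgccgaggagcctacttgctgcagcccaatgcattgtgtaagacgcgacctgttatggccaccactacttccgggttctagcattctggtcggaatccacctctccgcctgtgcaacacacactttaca
Meis2: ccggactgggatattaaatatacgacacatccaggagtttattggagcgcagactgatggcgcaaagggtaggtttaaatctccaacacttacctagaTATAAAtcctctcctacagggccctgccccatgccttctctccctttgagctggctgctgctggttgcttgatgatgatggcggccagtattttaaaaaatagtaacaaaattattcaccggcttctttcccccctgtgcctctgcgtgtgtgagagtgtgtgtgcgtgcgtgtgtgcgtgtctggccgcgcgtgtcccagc
Shox2: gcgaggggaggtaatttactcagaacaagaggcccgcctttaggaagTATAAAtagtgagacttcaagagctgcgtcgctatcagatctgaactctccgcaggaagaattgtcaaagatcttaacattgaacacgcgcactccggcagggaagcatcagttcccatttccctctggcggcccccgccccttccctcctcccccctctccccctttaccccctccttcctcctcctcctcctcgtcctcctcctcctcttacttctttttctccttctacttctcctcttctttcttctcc

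Promoters were matched for 5 of the 7 members, namely Meis1, Meis2, Meis3, Pbx2 and Shox2, and were searched on both strands for 4 strings of letters. TGACAG, the core bound by Meis and Pknox proteins, TGATNNAT, bound by Pbx with Hox, and AGGTCA, the core of retinoic acid receptor elements, were in 0 of the 5 windows, while 19.3%, 9.04% and 16% of 27025 promoters of the same length, 1 per gene, held them. TATAAA, a string chosen after the sequences had been read, occurred once in Meis2, at -152, and once in Shox2, at -203, and in 14.2% of all promoters. The marked strings overlap no other string searched. A match is a description of these letters only.

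The distal factors did not move as 1 group. Hoxd13, which patterns the digits, averaged 9.23 ± 0.22 in Nipbl+/- and 9.84 ± 0.33 in wild type buds (SD, n = 12 each), a difference of -0.61 (limma adjusted p = 0.00163), and 11 of 12 mutants lay below the lowest wild type embryo. Hoxd12 fell by 0.43 on the log2 scale (limma adjusted p = 0.0362). Hoxa13 differed by -0.46, with 10 of 12 mutants below the wild type mean, and was not called (limma adjusted p = 0.314), but was called lower with the replicate number as a block (limma adjusted p = 0.00313). Lhx9, a LIM homeobox gene of the distal mesenchyme, rose, at 12.24 ± 0.036 in Nipbl+/- and 12.09 ± 0.076 in wild type buds (SD, n = 12 each, limma adjusted p = 0.00698), and all 12 mutants lay above the wild type mean. Its relative Lhx2 differed by 0.10 (limma adjusted p = 0.319), and the distal homeobox genes Msx2 and Msx1 by 0.14 and 0.0061 (limma adjusted p = 0.356 and 0.992). The differences of Lhx2 and Msx2 were 0.028 and -0.011 within females and 0.16 and 0.24 within males. That of Lhx9 was 0.16 within females and 0.18 within males. Of 7 distal factors, 1 rose, 2 fell and 4 were not called, and their median difference was 0.0061.

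**Figure D2:**
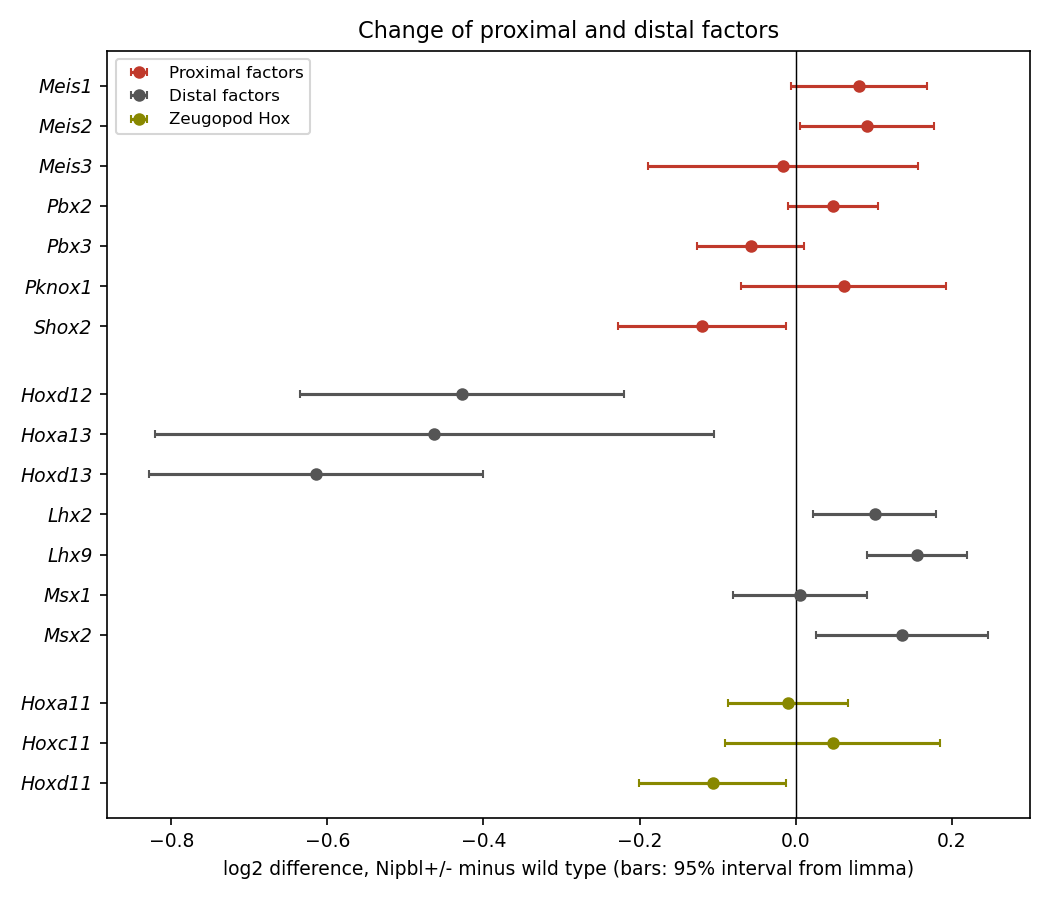
Log2 difference, Nipbl+/- minus wild type, with the 95% interval from limma (horizontal axis) for the 7 proximal factors, 7 distal factors and 3 zeugopod Hox genes (vertical axis). The proximal factors sit between -0.12 and 0.09 on both sides of 0, while Hoxd12, Hoxa13 and Hoxd13 lie between -0.61 and -0.43.

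Set against the distal Hox genes in the same embryo, every proximal factor was higher in Nipbl+/- buds, but so was nearly every gene. The mean of Hoxd12, Hoxa13 and Hoxd13 was 8.99 ± 0.30 in Nipbl+/- and 9.49 ± 0.34 in wild type embryos (SD, n = 12 each), a difference of -0.50. Relative to that mean, differences ran from 0.38 for Shox2 to 0.59 for Meis2, and limma called all 7 higher (adjusted p from 7.94e-04 to 0.00949). The same test called 99.1% of 19934 genes higher, so the count over the members carries the fall of the distal Hox genes and nothing particular to proximal factors. The scatter of the 3 Hox genes enters every gene alike, and these p-values treat it as though it were independent from gene to gene.

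Other genes of the same pathway and territory were examined as lists. The 3 zeugopod Hox genes, Hoxa11, Hoxc11 and Hoxd11, which pattern the middle segment, had 0 called and 1 with an unadjusted p under 0.05, Hoxd11 at -0.11 (limma adjusted p = 0.442). Of 12 stylopod and girdle factors measured, 0 were called, and the 2 with an unadjusted p under 0.05 were Hoxc9, a Hox gene of the posterior trunk and hindlimb, at -0.17 (adjusted p = 0.259), and Hoxd10 at 0.081 (adjusted p = 0.312, both from limma). The median over these 12 was -0.020. Of 11 other TALE homeobox genes, 0 were called, and the 3 with p under 0.05 before adjustment were all lower. These were Irx2 at -0.12, Pknox2, the closest relative of Pknox1, at -0.17 and Irx1 at -0.14 (limma adjusted p = 0.313, 0.369 and 0.524).

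Genes of retinoic acid synthesis, breakdown and reception, the signal thought to sustain Meis in the proximal bud, had 0 of 13 called, while p before adjustment was under 0.05 for 5 of them, of which 1 was higher. Of the 13 differences 9 were negative, and the median was -0.052. Cyp26b1, which breaks retinoic acid down in the distal bud, had log2 intensities of 8.93, 9.54 and 9.87 (lowest, median, highest) in Nipbl+/- embryos and 9.60, 9.83 and 10.15 in wild type embryos. It lay below the lowest wild type embryo in 8 of 12 mutants, with a difference of -0.34 that just missed the threshold (limma adjusted p = 0.0526) and passed it with the replicate number as a block (limma adjusted p = 0.00360). Stra6, a receptor for retinol uptake, lay above the highest wild type embryo in 10 of 12 mutants, with a difference of 0.16 (limma adjusted p = 0.0585). With the replicate number as a block, the limma adjusted p of Stra6 was 0.123. Rarb, a retinoic acid receptor that retinoic acid itself induces, differed by 0.19 with 11 of 12 mutants above the wild type mean (limma adjusted p = 0.617). Rdh10, which makes the precursor of retinoic acid, differed by -0.21 with 11 of 12 below it (limma adjusted p = 0.252). Among 14 genes of ridge Fgf signalling and response and 6 early cartilage genes, 0 were called, and the 2 and the 1 with p under 0.05 before adjustment were lower.

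Some of the proximal factors varied together from embryo to embryo within a genotype. Each genotype's mean was subtracted, and the 7 members were correlated over the 24 embryos with each other, with the distal and retinoic acid genes and with the means of 10 marker lists, 231 correlations in all. With permutations of embryos within genotype (100000, two-sided) and Benjamini-Hochberg adjustment over the 231, there were 25 at an adjusted p under 0.05, 16 positive and 9 negative. They belonged to Shox2 (9), Meis1 (5), Meis2 (5), Pknox1 (5) and Pbx2 (1), each pair of members being counted once. Arrays differed in the interquartile range of their values, from 3.27 to 3.76 in Nipbl+/- and from 3.21 to 3.69 in wild type, so each correlation was also computed with that range removed.

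The permutations treat the 24 embryos as independent, which some genes gave reason to doubt. The labels number the embryos of each genotype without saying what a number marks or which embryos shared a litter. Mutant and wild type embryos of the same number had r = 0.88 over the 12 numbers for Aldh1a2, 0.84 for Hoxa13, 0.80 for Hoxd12, 0.77 for Hoxd13, 0.72 for Cyp26b1, 0.70 for Rarg and 0.51 for Shox2, while Meis1 had -0.060 and Meis2 0.36. The median over all genes was -0.033, and 1.63% of genes were at 0.7 or more. The 231 correlations were therefore repeated over the means of the 12 numbers, where 6 had a permutation adjusted p under 0.05, and 5 of these were among the 25. They were those of Shox2 with Hoxd12, Hoxa13, Hoxd13 and Rarg and that of Pknox1 with Cyp26c1, and the sixth was Shox2 with Lhx2 (r = -0.87, permutation adjusted p = 0.0208), which over the 24 embryos had -0.33 and over the differences within a number 0.76.

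**Figure D3:**
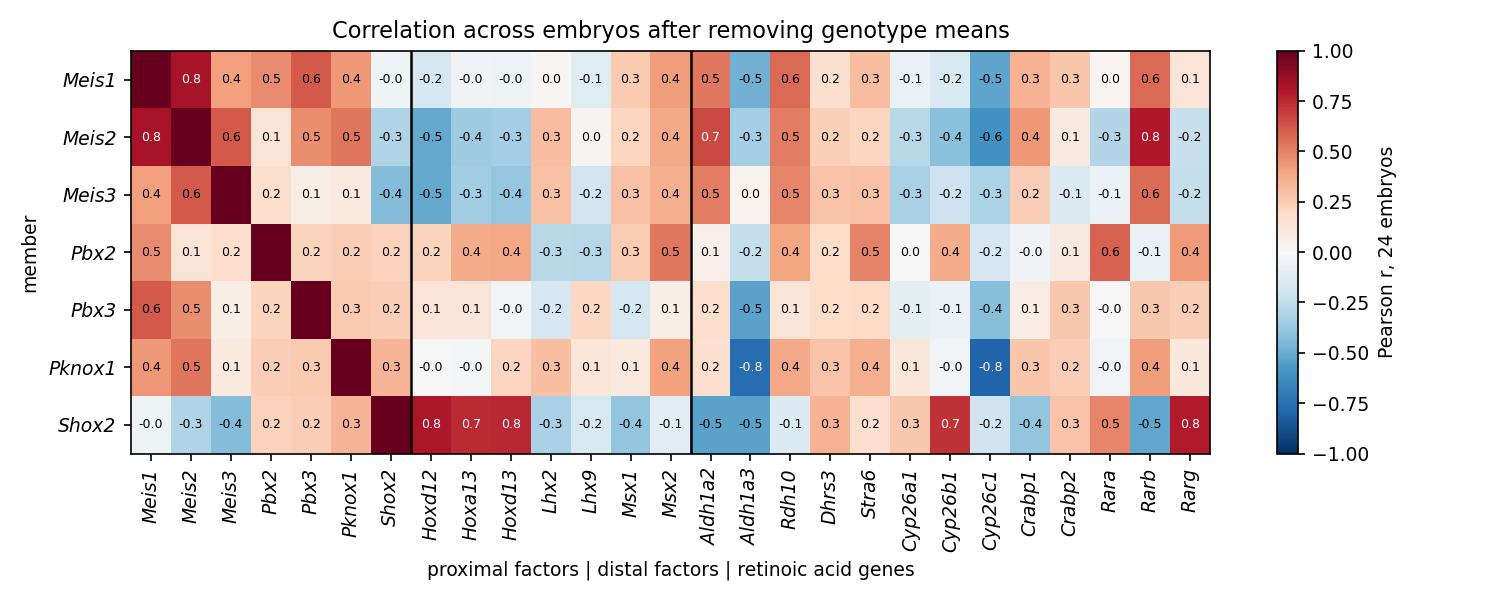
Pearson correlation over 24 embryos, after subtracting genotype means, of each proximal factor (rows) with the proximal factors, distal factors and retinoic acid genes (columns), on a colour scale from -1 to 1. Meis1 and Meis2 form 1 block at 0.82, and the row of Shox2 is red at Hoxd12, Hoxa13, Hoxd13, Cyp26b1 and Rarg and blue at Aldh1a2, Aldh1a3 and Rarb.

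Meis1 and Meis2 varied together, with Pearson's r = 0.82 and Spearman's rho = 0.79 (n = 24, permutation p = 2e-05 for both, adjusted p = 0.00115 and 0.00231). The value was 0.84 among Nipbl+/- and 0.83 among wild type embryos, 0.76 without the 2 embryos farthest from the median and 0.78 with the array range removed. It was 0.79 over the means of the 12 numbers (permutation adjusted p = 0.0526) and 0.90 over the differences within a number. Meis1 was also tied to Pbx3 (r = 0.61, rho = 0.61), and Meis2 to Meis3 (r = 0.61, rho = 0.60), each with a permutation adjusted p of 0.0272 for r. Without the 2 farthest embryos these were 0.58 and 0.72. By replicate number they were 0.69 and 0.51 over the means (permutation adjusted p = 0.202 and 0.375) and 0.55 and 0.80 over the differences within a number. Meis2 and Shox2, which differed in opposite directions between the genotypes, had r = -0.30 within them (rho = -0.25, permutation adjusted p = 0.361), and -0.64 with the array range removed.

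Meis2 varied with several retinoic acid genes. Meis2 with Rarb had r = 0.80 and rho = 0.69 (n = 24, permutation p = 3e-05 and 0.00048, adjusted p = 0.00139 and 0.0111), with 0.57 among Nipbl+/- and 0.89 among wild type embryos. The value was 0.63 without the 2 farthest embryos, 1 of them the wild type embryo at the bottom of the plot of Meis2 against Rarb, and 0.79 with the array range removed. By replicate number it was 0.77 over the means (permutation adjusted p = 0.0880) and 0.89 over the differences within a number. Meis2 also followed Aldh1a2, the main enzyme of retinoic acid synthesis in the embryo, with r = 0.66 and rho = 0.59 (permutation adjusted p = 0.0200 and 0.0409), and ran against Cyp26c1, another enzyme of retinoic acid breakdown, with r = -0.60 and rho = -0.56 (permutation adjusted p = 0.0272 and 0.0605). Without the 2 farthest embryos these were 0.60 and -0.68. By replicate number they were 0.71 and -0.64 over the means (permutation adjusted p = 0.130 and 0.246) and 0.59 and -0.69 over the differences within a number. Meis1 with Rdh10 had r = 0.57 (rho = 0.62), and Pbx2 with the receptor gene Rara r = 0.59 (rho = 0.56), with permutation adjusted p for r of 0.0490 and 0.0325, and 0.60 and 0.43 without the 2 farthest embryos. With the array range removed they were 0.46 and 0.57. Over the means of the numbers they were 0.23 and 0.74 (permutation adjusted p = 0.759 and 0.108), and over the differences within a number 0.83 and 0.51. Meis1 with Rarb had r = 0.56 (rho = 0.45, permutation adjusted p = 0.0483 and 0.167), which rested on the 2 farthest embryos, since it was 0.33 without them. Against the distal Hox genes, the correlations of Meis2 were negative but not past the threshold, at -0.51 for Hoxd12, -0.35 for Hoxa13 and -0.34 for Hoxd13 (permutation adjusted p = 0.0812, 0.293 and 0.361). With the array range removed they were -0.68, -0.45 and -0.55.

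Shox2 varied with the distal Hox genes. It had r = 0.81 and rho = 0.77 with Hoxd12, r = 0.75 and rho = 0.68 with Hoxa13, and r = 0.75 and rho = 0.81 with Hoxd13 (n = 24, permutation adjusted p for r = 0.00115, 0.00144 and 0.00115). For Hoxd12 and Hoxd13 the p before adjustment was 1e-05, the smallest that 100000 permutations can give. Without the 2 farthest embryos r was 0.78 with Hoxd12 and 0.67 with Hoxa13. For Hoxd13 the value was 0.85 among Nipbl+/- and 0.74 among wild type embryos, 0.78 without the 2 farthest embryos and 0.72 with the array range removed. By replicate number, the 3 values were 0.95, 0.89 and 0.85 over the means of the 12 numbers (adjusted p = 0.00231, 0.00924 and 0.0271 by permutation of the numbers, and 0.0300, 0.0416 and 0.0527 for rho), but 0.20, 0.062 and 0.37 over the mutant minus wild type differences within a number. The relation was thus seen between numbers, and was weak or near 0 within them. Shox2 also followed the retinoic acid receptor gene Rarg (r = 0.79, rho = 0.75) and Cyp26b1 (r = 0.72, rho = 0.63), and ran against Aldh1a2 (r = -0.53, rho = -0.44) and Rarb (r = -0.52, rho = -0.54), the last pair with permutation adjusted p for r of 0.0490 each and for rho of 0.175 and 0.0621. Without the 2 farthest embryos these were 0.70 for Rarg, 0.59 for Cyp26b1, -0.42 for Aldh1a2 and -0.48 for Rarb. Over the means of the numbers, that with Rarg was past the threshold at 0.82 and that with Cyp26b1 was not at 0.76 (permutation adjusted p = 0.0343 and 0.0892, and 0.138 for rho of both), and over the differences within a number they were 0.70 and 0.61. Those with Aldh1a2 and Rarb were not past it either, at -0.58 and -0.72 over the means (permutation adjusted p = 0.297 and 0.118). Within a number they were -0.34 and 0.11, so that with Rarb changed sign.

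**Figure D4:**
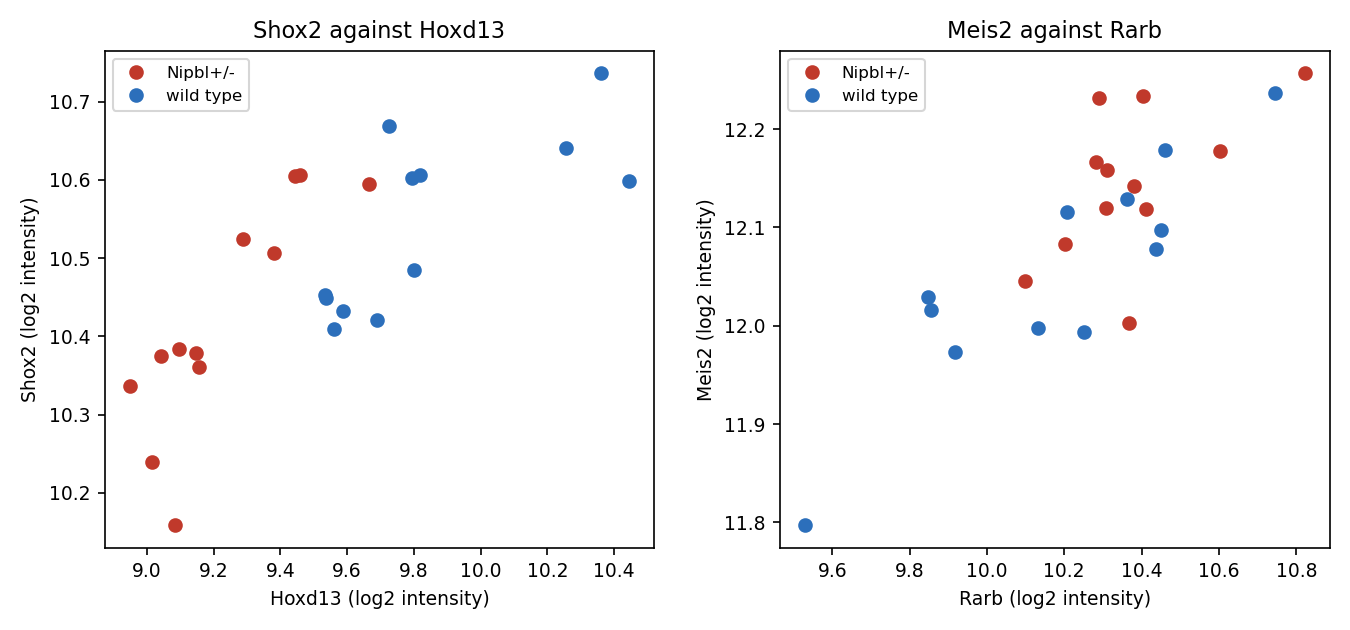
Log2 intensity of Shox2 against Hoxd13 (left) and of Meis2 against Rarb (right), 1 point per embryo, Nipbl+/- in red and wild type in blue. In the left panel the 7 lower Nipbl+/- embryos, at up to 10.38 for Shox2, are those with the lowest Hoxd13, and in the right panel 1 wild type embryo lies apart at 11.80 for Meis2.

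Markers of other tissues moved with some of these genes. The mean of the 5 nephric and gonadal ridge markers, Wt1, Pax2, Pax8, Gata4 and Lhx1, had r = -0.65 with Shox2, and that of the 5 neural tube markers r = -0.58 (rho = -0.68 and -0.58, permutation adjusted p = 0.0140 and 0.0429 for r). Without the 2 farthest embryos these were -0.64 and -0.51, and with the array range removed -0.50 and -0.36. Over the means of the replicate numbers both were -0.55 (permutation adjusted p = 0.353 for both), and over the differences within a number they were -0.90 and -0.79. With Meis1, Meis2 and Meis3 the nephric mean had r = -0.18, -0.062 and 0.27, and with the array range removed 0.55, 0.62 and 0.64, given as descriptions. The nephric mean ran from 6.77 to 7.28 in Nipbl+/- and from 6.81 to 7.22 in wild type embryos, and the neural mean from 6.07 to 6.52 in Nipbl+/- and from 6.09 to 6.59 in wild type embryos. By limma 0 of 5 genes of either list were called. The mean of the 9 endothelial markers had r = 0.66 with Meis1 and 0.59 with Meis2 (rho = 0.73 and 0.62, permutation adjusted p = 0.00800 and 0.0485 for r). It ran from 9.39 to 9.70 in Nipbl+/- and from 9.33 to 9.71 in wild type embryos, with 0 of 9 genes called, and the correlations were 0.77 and 0.74 without the 2 farthest embryos. With the array range removed they were 0.52 and 0.50. Over the means of the replicate numbers they were 0.55 and 0.50 (permutation adjusted p = 0.353 and 0.393), and over the differences within a number 0.76 and 0.74. The part of these tissues in the values of Shox2, Meis1, Meis2 and Meis3 was not tested.

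Pknox1 stood apart from the other members in following the arrays' own spread of values. Its r with the interquartile range of the array was 0.83, against 0.06 to 0.50 for the other 6. Its 5 correlations past the threshold, with Aldh1a3, Cyp26c1 and the means of neural tube, nephric and endothelial markers, lay between -0.80 and 0.72 and came to between -0.38 and 0.098 with the array range removed.

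Over all 19937 genes, the 3 most like each member were found by the same correlation over 24 embryos, given as descriptions. Shox2 was followed most closely by Rasgef1b (r = 0.88), Cbln1 (0.88) and Mecom (0.86), of which Cbln1, a secreted protein known from synapses, fell by 0.44 on the log2 scale in Nipbl+/- buds (limma adjusted p = 0.0239). Meis1 was most like Epb41l3 (0.87), Ano4 (0.85) and Meis2, and Meis2 most like Meis1, Podxl (0.81) and Ano4 (0.80). The gene most opposed to Meis2 was Shh, the signal of the posterior limb bud, at -0.77, a value singled out after it had been seen. Shh itself fell by 0.28 on the log2 scale in Nipbl+/- buds (limma adjusted p = 0.0326). Meis3 was most like Tmem106c (0.78), Hoxc8 (0.78) and Foxp4 (0.75), and Pbx3 most like Kidins220 (0.78), Reck (0.75) and Dse (0.74). Of the 3 closest to Pbx2, which were Bcl9l, Sipa1l2 and Fbxl7 at 0.74 each, Sipa1l2 fell by 0.23 on the log2 scale (limma adjusted p = 0.00239). Pknox1 was most like Efr3a (0.90), Nup93 (0.88) and Nars (0.87), values that came to between 0.61 and 0.62 with the array range removed.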

How the data were processed

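Total RNA of 24 embryos was labelled and hybridised to the Affymetrix Mouse Gene 1.0 ST array. The authors started from the scanner's intensity files with GenePattern's Expression File Creator. RMA is the tool in the submitters' notes (no version is given in the sources used here), and the deposited values are log2 intensities. RMA corrects background and normalizes quantiles of the probes, and after such a step a change shared by most genes would not be seen. The deposited arrays still differed in distribution, with medians of all probe sets from 7.24 to 7.39. Of 28159 probe sets, 21640 carried 1 gene symbol, and the brightest per gene was taken, leaving 19937 genes. The genotypes were tested with limma 3.58.1 (R 4.3.3), because the methods give a module, Comparative Markers Selection, without its statistic. The fit was tested on simulated data. Alternatives were another gene summary, dropping dim genes, a trended and robust variance, array weights, a t-test on linear values, and replicate number, embryo sex or array centring. A covariate for each array's interquartile range, and correlations over the means of the replicate numbers and the differences within them, were chosen after seeing the data. Named genes are all members, distal factors and other TALE genes that bear on a result, the called genes and up to 3 more with the smallest p in each list, the neighbours of each member, and the 3 genes most like it. Members and lists were chosen with earlier results of these data known. Plots came from matplotlib 3.10.9 under Python 3.11.15.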

Additional observations from a re-analysis of the deposited data

How the results depend on the processing

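Under 9 alternatives to the limma fit, 0 of the 7 members were called. The other gene summary, dropping dim genes, the trended and robust variance and the replicate block leave a member's difference as it was. Its direction was thus fixed in advance under these, and could change only under the other alternatives. Of all 63 member values, 62 kept their direction. The exception was Meis3, at 0.019 with embryo sex as a covariate (adjusted p = 0.991, from 0.840 to 0.997 over the alternatives). Adjusted p ran from 0.266 to 0.615 for Meis2 and from 0.166 to 0.527 for Shox2. At an unadjusted p under 0.05, Shox2 was lost with array weights (p = 0.0565 from limma) and with array medians set to 0 (p = 0.0528), and Meis2 with embryo sex as a covariate (p = 0.0657). For Shox2 that covariate gave -0.16 (limma p = 0.00756, adjusted p = 0.254). The replicate block and the array range covariate gave Shox2 an unadjusted limma p of 0.0108 and 0.0107 (adjusted p = 0.277 and 0.166). The count over all genes was 162, and became 281 with array weights (101 higher, 180 lower) and 487 with the array interquartile range as a covariate (185 higher, 302 lower), and the cause was not tested. Array medians set to 0 gave 73 higher and 94 lower, against 57 and 105. The replicate numbers were not treated as pairs, because same-numbered embryos correlated over all genes at -0.35 to 0.28, with 5 of 12 pairs over 0.1 and 4 of 24 embryos closest to their own number, although in Hoxa13, Hoxd12, Hoxd13, Aldh1a2 and Cyp26b1 they varied together. With the replicate number as a block, 169 genes were called (48 higher, 121 lower), 0 of them members, and Hoxa13 and Cyp26b1 passed the threshold. The standard errors of the members, from 0.028 for Pbx2 to 0.085 for Meis3, set the size of change that 12 against 12 arrays could show.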

Other observations

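The genes beside each member on its chromosome were read from the order of RefSeq genes in GRCm38.p6, the nearest 2 measured genes on each side. Of these 28 neighbours, 0 were called by limma, and 5 had an unadjusted p under 0.05, 3 higher and 2 lower, against 9.26% of all genes. Both genes on 1 side of Meis2, Dph6, which makes diphthamide on an elongation factor, and BC052040, differed by 0.14 and 0.12 on the log2 scale, each with 11 of 12 mutants above the wild type mean (limma adjusted p = 0.147 and 0.208). The genes on the other side, Tmco5 and Spred1, differed by 0.012 and -0.012. Near Pbx3, which differed by -0.057, the uncharacterised gene C130021I20Rik differed by 0.15 and had 12 of 12 mutants above the wild type mean (limma adjusted p = 0.0923). On 1 side of Shox2, Veph1 differed by -0.10 and Ptx3 by -0.14 (limma adjusted p = 0.486 and 0.369). Veph1 and Ptx3 lay below the wild type mean in 10 and 11 of 12 mutants.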
